A study of Mus musculus with 6 samples.

Results

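The genes of the DNA replication machinery were followed in RNA sequencing of bone marrow cells from wild-type mice. The members are 55 genes, taken by symbol from the deposited tables of 21851 genes and sorted into 11 groups by the complex or step they serve. All 55 were found, each on 1 line, and all passed the filter on low values in all 6 libraries. One group of mice, with 3 libraries, had eaten a control diet (CD), the other, also with 3 libraries, a high cholesterol diet (HCD) for 3 months, and both groups were WT. Cells negative for lineage markers, CD34 and CD135 and positive for c-Kit and Sca1 were sorted and labelled LT-HSC, for long-term haematopoietic stem cells, which renew the blood over a lifetime. Strain, sex, age and the number of animals per library are not stated in the labels. Since nothing says that the 3 libraries of a group are from different animals, the p-values cover the spread among these libraries alone, which may be technical.

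DNA replication starts where the origin recognition complex sits on DNA and, with Cdc6 and Cdt1, loads rings of MCM proteins during G1. At the start of S phase, kinases and accessory factors turn the loaded rings into active helicases, and polymerases then copy both strands behind them, with the sliding clamp PCNA holding the polymerases on DNA. LT-HSCs in adult marrow divide rarely and most of them rest in G0, and transcripts of the replication machinery are in general more abundant in dividing progenitors than in resting stem cells.

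Expression is given in FPKM, a level that is scaled to transcript length and library size and can be set side by side between genes. Depth was estimated from the steps between low values at 18850000 to 20010000 reads or fragments per library. In these bulk libraries, fewer cells of a type and less RNA per cell cannot be told apart. The sort was checked against its own markers: Kit and Ly6a (which encodes Sca1) had mean levels of 120 and 64.2 FPKM, but Cd34 and Flt3 (which encodes CD135), the gate's negative markers, had 464 and 109 FPKM. The label LT-HSC is therefore used here only as the name of the sort. Between groups, 5 of 5 myeloid progenitor markers rose (summed level 869 to 897 FPKM under CD and 1607 to 1778 under HCD), as did 4 of the 4 tested neutrophil markers (11.0 to 11.5 and 35.9 to 43.4 FPKM over the 5 listed). Of the tested markers, 0 of 4 erythroid and 0 of 2 B cell markers passed the test, and Cd3e, which defines T cells, was listed at 0 in every library. Nkg7, the 1 tested marker listed for T and NK cells, rose from 103, 102 and 107 FPKM under CD to 134, 148 and 126 under HCD (log2 change 0.38, limma adjusted p = 0.00739). The part of this shift in cell markers in the values below was not tested. HCD replicate 2 stood apart: its median squared difference from the other HCD libraries was 6.51 and 7.29 times that of sampling noise, against 2.41 between HCD replicates 1 and 3 and 2.31 to 2.74 between CD libraries.

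The comparison of HCD with CD asks whether transcripts of the replication machinery differ after the cholesterol-rich diet. Under HCD 18 of the 55 members fell and 0 rose (32.7% lower), with limma at an adjusted p under 0.05. Of all 10676 genes tested, 7.66% were lower and 6.28% higher by the same rule. The falls were small: against the CD mean, Mcm3 fell by 9.99%, the least among the 18, and Pole fell by 22.2%, the most. They covered 5 of the 6 MCM ring subunits, 5 of the 10 polymerase and primase subunits and both Okazaki fragment enzymes. The clamp Pcna and the maintenance methylation factor Uhrf1 were also among them. Of 3 licensing factors and 5 nucleotide supply enzymes 0 passed the test, with median log2 changes of -0.11 and -0.13. Lists this short cannot show that these steps were spared. In 31 members every HCD library lay below every CD library, and in 0 members above, where 22.7% of all genes tested lay wholly below and 15.0% wholly above. The median log2 change of the members was -0.16, against -0.03 over all genes tested, and 48 of 55 members had a log2 change below 0, against 6186 of the 10676 genes.

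Summed over the members, the level was 3105 to 3129 FPKM under CD and 2785 to 2846 FPKM under HCD. As a share of all FPKM in a library, the members held 0.732%, 0.719% and 0.727% in the CD libraries and 0.637%, 0.615% and 0.640% in the HCD libraries. The groups did not overlap in either measure. Both measures rest on the same sum. The FPKM total that the share is divided by was 427219 to 433052 under CD and 435345 to 462370 under HCD, which widens the fall in share. Set against the CD mean, the median member stood at -0.14, -0.15 and -0.17 on the log2 scale in HCD replicates 1, 2 and 3, where the median of all genes tested stood at -0.02, -0.05 and -0.02. HCD replicate 2, which stood apart from the others over all genes, was the lowest HCD library in 23 members, the highest in 23 and between the others in 9. It was lowest in 41.8% and highest in 41.8% of members, against 46.9% and 36.3% of all genes tested.

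The number of members past the threshold depended on single libraries. It was 2, 5 and 3 without CD replicates 1, 2 and 3, and 6, 27 and 11 without HCD replicates 1, 2 and 3. Over all genes tested the calls moved likewise, to between 435 and 688 when CD replicate 1, 2 or 3 or HCD replicate 1 was left out, to 2672 without HCD replicate 2 and to 1081 without HCD replicate 3. Pole and Uhrf1 were called in all 6 of these fits. The 9 members called in addition without HCD replicate 2 were Orc3, Gins4, Pold1, Pole3, Rfc4, Rpa2, Rrm1, Tyms and Chaf1a. Scaling each library by a trimmed mean, which moved the median of all genes from -0.03 to -0.00, left 13 members lower and changed the split over all genes from 670 higher and 818 lower to 785 and 597. With that scaling 44 members still had a log2 change below 0.

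**Figure D1:**
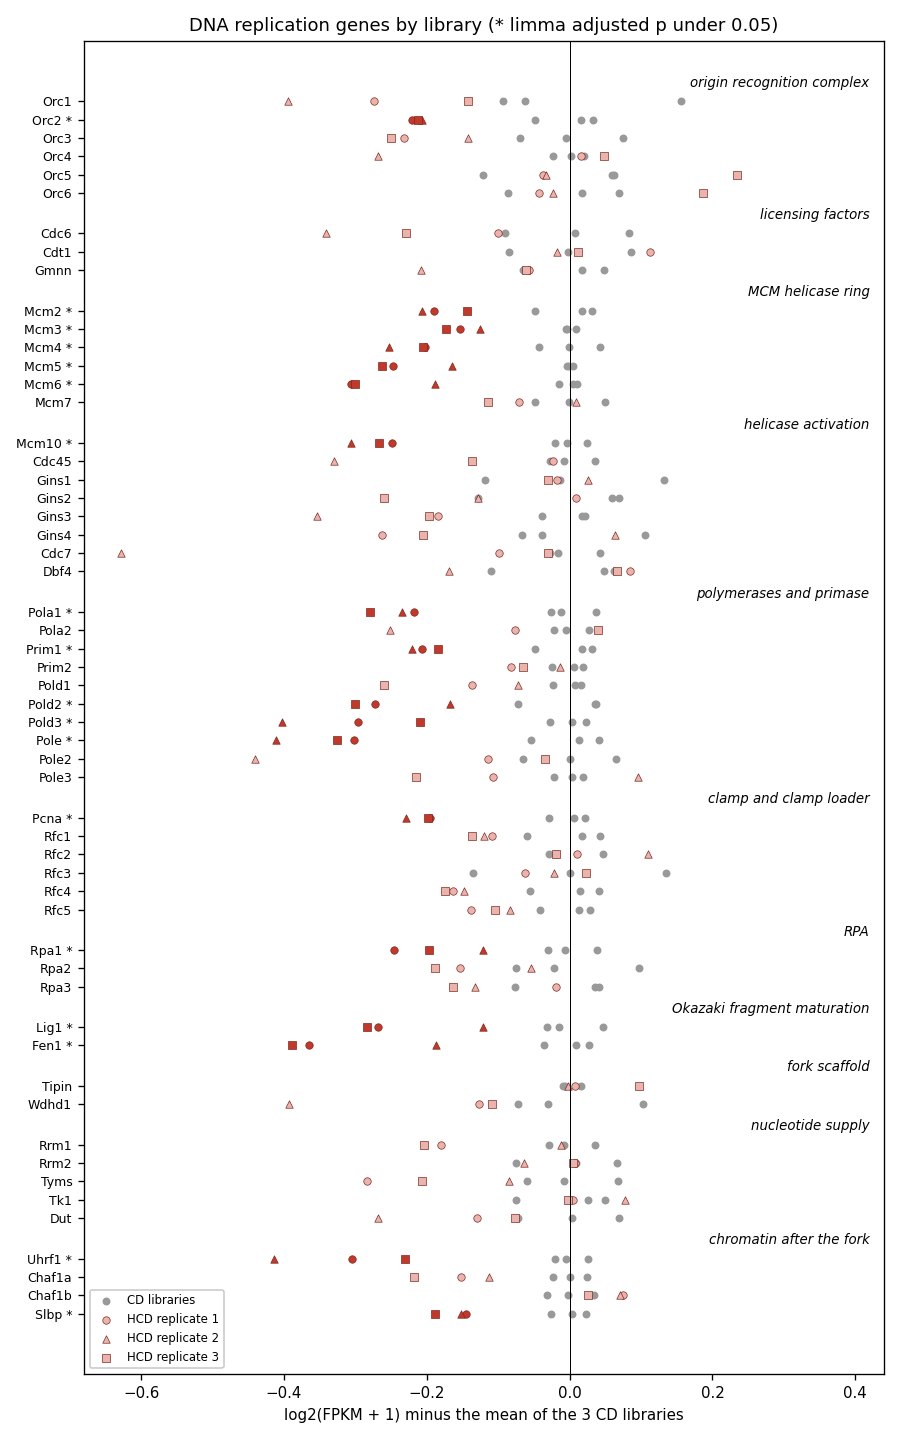
Level of each of the 55 replication genes in every library, as log2(FPKM + 1) minus the mean of the 3 CD libraries, ordered by complex. Grey points are CD libraries, red symbols HCD libraries (circle, triangle and square for replicates 1, 2 and 3), filled dark with an asterisk for the 18 genes past an adjusted p of 0.05, all of which had every HCD library left of every CD library.

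The origin recognition complex marks the places where replication can begin. Its subunit gene Orc2 (chromosome 1, 58462771 to 58505109, GRCm38, as for all positions here) had 25.4, 25.1 and 23.9 FPKM under CD and 21.1, 21.3 and 21.2 under HCD. The 3 HCD libraries lay close together and below the CD libraries, and Orc2 fell by 14.3% (log2 change -0.21 ± 0.05 (SE), adjusted p = 0.0248). The call was lost when CD replicate 1, 2 or 3 was left out (adjusted p = 0.111, 0.0983 and 0.0624) or without HCD replicate 1 or 3 (0.0817 and 0.0590). An exon of Orc2 overlaps one of Nif3l1 on the other strand by 686 bp (mean level of Nif3l1 9.89 FPKM), and the strand setting of the quantification is not known from the labels. Orc1, the largest subunit and an ATPase, had 3.67, 3.57 and 4.43 FPKM under CD and 3.03, 2.71 and 3.42 under HCD, the lowest level of any member, and the log2 change was -0.27 (95% interval -0.51 to -0.03, adjusted p = 0.12). Orc6, the most abundant subunit transcript of the complex, had 26.2, 23.4 and 25.2 FPKM under CD and 24.1, 24.5 and 28.5 under HCD, with the groups overlapping, and the log2 change was 0.04 (95% interval -0.13 to 0.21, adjusted p = 0.747). For the other 3 subunits the log2 changes were -0.21 (Orc3), -0.07 (Orc4) and 0.05 (Orc5). Orc3 passed without HCD replicate 2 (adjusted p = 0.0217).

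Licensing factors load the MCM ring on the origin, and of the 3 measured 0 passed the test. Cdc6, the ATPase that completes the loader, had 11.0, 11.8 and 12.5 FPKM under CD and 10.9, 9.04 and 9.86 under HCD. All HCD libraries lay below the CD libraries, and the log2 change was -0.22 (95% interval -0.41 to -0.04, adjusted p = 0.103). Gmnn, which encodes geminin, the inhibitor of Cdt1, had 50.3, 46.4 and 49.2 FPKM under CD and 46.7, 42.0 and 46.6 under HCD, and the log2 change was -0.11 (95% interval -0.24 to 0.02, adjusted p = 0.232). For Cdt1, the loading factor itself, the log2 change was 0.04 (95% interval -0.10 to 0.17, adjusted p = 0.714), with overlapping groups. No setting tried brought any of these 3 past the threshold.

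The 6 MCM subunits form the ring that unwinds DNA at the fork. They stand in the ring in equal numbers, and 5 of their 6 transcripts fell together. Mcm6 (chromosome 1, 128331590 to 128359664) had 163, 166 and 166 FPKM under CD and 133, 145 and 134 under HCD. No HCD library reached the CD range, and Mcm6 fell by 16.8% (log2 change -0.26 ± 0.05 (SE), adjusted p = 0.00938). In Mcm5 (chromosome 8, 75109569 to 75128439) the levels were 130, 131 and 130 FPKM under CD and 110, 116 and 108 under HCD. This subunit forms the gate of the ring with Mcm2, and it fell by 14.5% (log2 change -0.23 ± 0.04 (SE), adjusted p = 0.0127). Mcm4 (chromosome 16, 15623897 to 15637400), part of the catalytic core and the least abundant of the ring transcripts, had 78.6, 81.1 and 76.4 FPKM under CD and 68.3, 65.9 and 68.1 under HCD. Here too the groups were apart, and Mcm4 fell by 14.3% (log2 change -0.22 ± 0.04 (SE), adjusted p = 0.0136). For Mcm2 (chromosome 6, 88883474 to 88898780), a histone-binding subunit, the values were 114, 113 and 108 FPKM under CD and 97.6, 96.5 and 101 under HCD. HCD replicate 3 came nearest to the CD libraries, and Mcm2 fell by 11.9% (log2 change -0.18 ± 0.04 (SE), adjusted p = 0.0289). Mcm3 (chromosome 1, 20802968 to 20820312), with Mcm7 the most abundant ring transcript, had 167, 166 and 166 FPKM under CD and 149, 152 and 147 under HCD. The 3 CD libraries differed by little, and Mcm3 fell by 9.99% (log2 change -0.15 ± 0.04 (SE), adjusted p = 0.0376), the smallest fall among the members called.

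Mcm7 was the exception in the ring. It had 166, 161 and 155 FPKM under CD and 153, 162 and 148 under HCD, with HCD replicate 2 inside the CD range, and the log2 change was -0.06 (95% interval -0.17 to 0.05, adjusted p = 0.448). Its level over the mean of the other 5 subunits was 1.27, 1.22 and 1.20 in the CD libraries and 1.37, 1.41 and 1.33 in the HCD libraries, ranges that did not overlap. The difference of Mcm7 from the other subunits was seen in these values before it was set out, and it was not tested. The Mcm7 locus also shares exon bases on the opposite strand with Cops6 (64 bp, mean level 81.8 FPKM) and Ap4m1 (247 bp, 19.5 FPKM). The ring calls depended on single libraries. Of the 5 subunits, 0 passed when CD replicate 1 or CD replicate 2 was left out, 1 (Mcm4) when CD replicate 3 was, 2 (Mcm4 and Mcm6) when HCD replicate 1 was, 5 when HCD replicate 2 was and 4 (all but Mcm3) when HCD replicate 3 was. Mcm2 and Mcm3 were also lost under trimmed-mean scaling and once the length trend was taken out (highest adjusted p 0.0747 and 0.136).

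**Figure D2:**
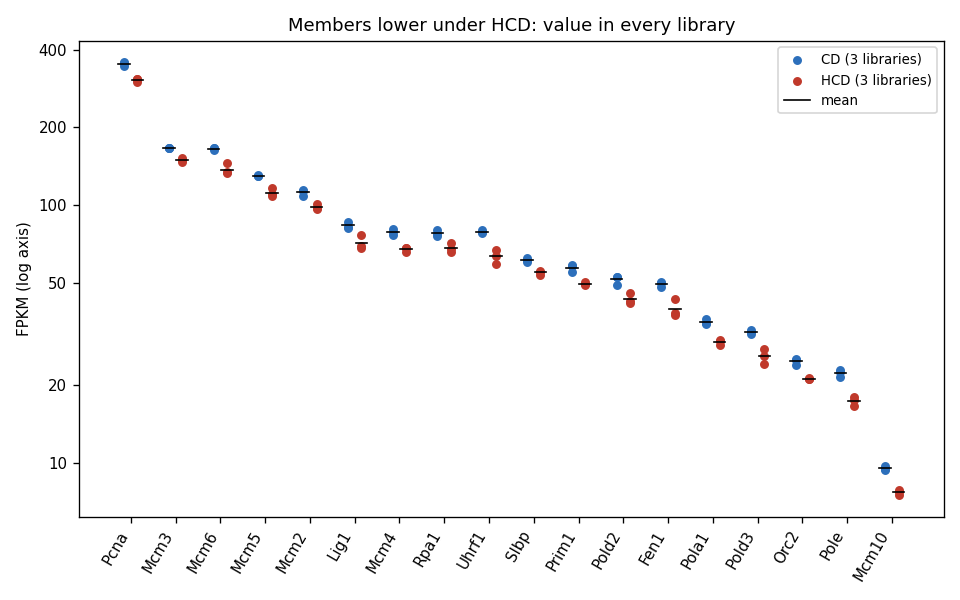
FPKM on a log axis of the 18 replication genes lower under HCD, 1 point per library with the 3 CD libraries in blue, the 3 HCD libraries in red and black bars at the group means. In each gene all 3 HCD points lie below all 3 CD points, and the gap between the group means is narrowest in Mcm3 and widest in Pole.

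Transcription of many replication genes in S phase is driven by E2F factors, which bind a motif near the start of the gene. The promoters of the ring genes that hold an E2F match are printed here, since subunits that fell (Mcm3, Mcm5 and Mcm6) and the one that did not pass (Mcm7) can then be read side by side. Sequences are from RefSeq (GRCm38.p6), 250 bases before to 50 after the annotated start, written 5′ to 3′ on the strand of the gene. Capitals mark bases that match TTTNNCGC or its reverse complement, where N is any base and overlapping matches run together.
Mcm3, chr1:20820263-20820562, minus strand: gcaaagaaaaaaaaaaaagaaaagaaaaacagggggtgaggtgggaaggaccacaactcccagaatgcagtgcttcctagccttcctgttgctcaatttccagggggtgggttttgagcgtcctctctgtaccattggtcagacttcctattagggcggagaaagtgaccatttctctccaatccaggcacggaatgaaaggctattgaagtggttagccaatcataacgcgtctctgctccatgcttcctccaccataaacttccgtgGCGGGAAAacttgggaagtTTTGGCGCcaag
Mcm5, chr8:75109259-75109558, plus strand: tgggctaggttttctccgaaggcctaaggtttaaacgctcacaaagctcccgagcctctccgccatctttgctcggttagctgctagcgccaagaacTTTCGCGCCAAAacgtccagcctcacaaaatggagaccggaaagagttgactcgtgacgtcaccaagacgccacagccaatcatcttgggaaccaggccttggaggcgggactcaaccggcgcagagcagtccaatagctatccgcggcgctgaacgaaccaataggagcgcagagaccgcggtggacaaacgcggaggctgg
Mcm6, chr1:128359656-128359955, minus strand: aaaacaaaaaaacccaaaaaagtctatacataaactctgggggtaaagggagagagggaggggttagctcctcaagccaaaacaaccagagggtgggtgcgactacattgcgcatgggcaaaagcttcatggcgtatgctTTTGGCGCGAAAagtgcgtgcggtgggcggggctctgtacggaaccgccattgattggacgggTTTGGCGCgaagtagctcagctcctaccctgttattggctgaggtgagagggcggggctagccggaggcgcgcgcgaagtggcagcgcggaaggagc
Mcm7, chr5:138171834-138172133, minus strand: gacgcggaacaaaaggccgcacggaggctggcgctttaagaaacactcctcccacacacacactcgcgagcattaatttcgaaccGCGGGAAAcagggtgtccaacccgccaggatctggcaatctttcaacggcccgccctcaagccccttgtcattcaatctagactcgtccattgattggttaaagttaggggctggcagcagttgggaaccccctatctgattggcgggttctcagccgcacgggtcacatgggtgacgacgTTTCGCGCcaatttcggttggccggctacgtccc
In the Mcm6 promoter the matches begin 110, 106 and 47 bases before the start, and the first of these overlap. The Mcm5 matches begin 153 and 149 bases before the start, those of Mcm3 20 and 39 bases after it, and those of Mcm7 165 bases before and 17 after. Mcm7 has another RefSeq start in the table (chr5:138171217-138171516, minus strand), whose promoter held 0 matches and is not printed. The Mcm2 promoter entry held no match, and for Mcm4 no promoter entry was used here.

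Promoter entries were found for 46 of the 55 members, with 56 starts in all. The E2F letters matched in 18 of the 56 (32.1%), against 8.59% of the promoters of genes tested and 5.17% of all 32851 promoters in the table. By gene, 7 of the 16 members called lower with an entry held a match (43.8%) and 10 of the 30 not called (33.3%). The other 3 motifs, searched on both strands as well, were TTTGAA (the cell cycle homology region, 14.3% of member promoters against 11.9% of those of genes tested), CCAAT (51.8% against 38.1%) and GGGCGG (the Sp1 motif, 75% against 63.5%). The letters GGGCGG can share bases with an E2F match, and such promoters count for both motifs. These matches describe letters in a window and are not binding sites.

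Loaded rings become active helicases through the kinase Cdc7 with its partner Dbf4, and through Cdc45, the 4 GINS subunits and Mcm10. Of these 8 genes 1 fell. Mcm10 (chromosome 2, 4989714 to 5012791), which starts DNA unwinding, had 9.70, 9.37 and 9.49 FPKM under CD and 7.86, 7.51 and 7.74 under HCD. The groups were apart by more than their own spread, and Mcm10 fell by 19.1% (log2 change -0.27 ± 0.06 (SE), adjusted p = 0.0238). It was lost when any library but HCD replicate 2 was left out (adjusted p up to 0.10). Cdc7 had 17.8, 16.9 and 17.1 FPKM under CD and 16.0, 10.8 and 16.9 under HCD, so that the group difference came mostly from HCD replicate 2, and the log2 change was -0.25 (95% interval -0.57 to 0.07, adjusted p = 0.254). Gins4, the most abundant of these transcripts, had 38.7, 38.0 and 42.9 FPKM under CD and 33.0, 41.7 and 34.4 under HCD, and the log2 change was -0.14 (95% interval -0.34 to 0.07, adjusted p = 0.330). In Gins4 replicate 2 was the high HCD library, inside the CD range, and the gene passed without it. Cdc45, which joins ring and GINS in the active helicase, had a log2 change of -0.16 with overlapping groups, and Gins3 one of -0.24 with the groups apart (adjusted p = 0.0596). Gins1, Gins2 and Dbf4 had log2 changes of -0.01, -0.13 and -0.01.

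The polymerases and primase held the largest fall among the members. Pole (chromosome 5, 110286306 to 110337474), the catalytic subunit of the leading-strand polymerase epsilon, had 22.6, 21.5 and 23.0 FPKM under CD and 18.0, 16.6 and 17.6 under HCD. The highest HCD library (18.0 FPKM) stood below the lowest CD library (21.5 FPKM), and Pole fell by 22.2% (log2 change -0.35 ± 0.06 (SE), adjusted p = 0.00750). It kept its call whichever library was left out, with a highest adjusted p of 0.0467. Its accessory subunits Pole2 and Pole3 did not pass, and had log2 changes of -0.20 and -0.08. Pole3, which has the highest level of the 10 genes and also serves in chromatin remodelling, had 87.4, 90.0 and 89.0 FPKM under CD and 82.4, 95 and 76.4 under HCD. HCD replicate 2 was above all CD libraries there while the other HCD libraries were below them, and Pole3 passed without it.

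Polymerase alpha with primase lays down the RNA and DNA primer of each new strand. Its catalytic gene Pola1 (chromosome X, 93304767 to 93632155) had 34.8, 34.5 and 36.0 FPKM under CD and 30.0, 29.7 and 28.7 under HCD. The HCD libraries lay together well under the CD libraries, and Pola1 fell by 16.0% (log2 change -0.24 ± 0.05 (SE), adjusted p = 0.0122). Prim1 (chromosome 10, 128015168 to 128030037), the catalytic primase subunit, had 55.2, 57.8 and 58.5 FPKM under CD and 49.4, 48.9 and 50.2 under HCD. Its groups did not overlap either, and Prim1 fell by 13.4% (log2 change -0.20 ± 0.04 (SE), adjusted p = 0.0185). The partner subunits Pola2 and Prim2 had log2 changes of -0.10 and -0.05, both with overlapping groups, so that in each pair the catalytic subunit was the one that passed the test. No difference between partners was tested.

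Polymerase delta copies the lagging strand. Pold3 (chromosome 7, 100082111 to 100121565), an accessory subunit, had 32.3, 31.6 and 32.8 FPKM under CD and 26.1, 24.1 and 27.7 under HCD. The lowest CD library stood above the highest HCD library, and Pold3 fell by 19.4% (log2 change -0.30 ± 0.06 (SE), adjusted p = 0.0134). Pold2 (chromosome 11, 5872180 to 5878292), the subunit that links the catalytic and accessory parts, had 52.7, 48.9 and 52.8 FPKM under CD and 42.4, 45.7 and 41.6 under HCD. Again the groups were apart, and Pold2 fell by 16.0% (log2 change -0.25 ± 0.05 (SE), adjusted p = 0.0213). In the catalytic subunit Pold1, the log2 change was -0.16 (95% interval -0.28 to -0.03, adjusted p = 0.0927), with every HCD library below every CD library, and it passed without HCD replicate 2. Over the 10 genes the number past the threshold was 1, 3 and 1 without CD replicates 1, 2 and 3, and 3, 7 and 4 without HCD replicates 1, 2 and 3.

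Pcna (chromosome 2, 132249162 to 132253314), the sliding clamp and the most abundant member transcript, had 346, 354 and 358 FPKM under CD and 308, 301 and 307 under HCD. It was high in all CD libraries and lower by similar amounts in all HCD libraries, and Pcna fell by 13.4% (log2 change -0.21 ± 0.04 (SE), adjusted p = 0.0160). Without CD replicate 1, 2 or 3 or HCD replicate 1 the call was lost (adjusted p up to 0.0883). Processed pseudogenes of Pcna are annotated in mouse, and how reads shared with them were assigned is not known from the labels. The loader that opens the clamp, replication factor C, passed in 0 of its 5 subunits. Rfc2, the most abundant of them, had 151, 158 and 150 FPKM under CD and 154, 165 and 151 under HCD, and the log2 change was 0.03 (95% interval -0.08 to 0.15, adjusted p = 0.678). Rfc1, Rfc4 and Rfc5 had every HCD library below every CD library, with log2 changes of -0.12, -0.16 and -0.11 (adjusted p = 0.125, 0.0525 and 0.129). Rfc3 had overlapping groups and a log2 change of -0.02. An exon of Rfc2 overlaps one of Lat2 on the other strand by 952 bp.

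Replication protein A coats the single strands that the helicase exposes. Rpa1 (chromosome 11, 75298166 to 75348324), its large DNA-binding subunit, had 79.9, 77.5 and 76.2 FPKM under CD and 65.5, 71.5 and 67.8 under HCD. HCD replicate 2 came nearest to the CD libraries without reaching them, and Rpa1 fell by 12.3% (log2 change -0.19 ± 0.05 (SE), adjusted p = 0.0349). Among the 18 genes called this was one of the least stable: it passed in 1 of 6 fits that left out a library, the one without HCD replicate 2, and was lost with no filter on low values, with trimmed-mean scaling and with the length trend removed. Rpa2 and Rpa3 had log2 changes of -0.13 and -0.11 with overlapping groups, and Rpa2 passed without HCD replicate 2.

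Both enzymes that finish Okazaki fragments fell. Fen1 (chromosome 19, 10199132 to 10204169), the flap endonuclease that trims the primer, had 49.7, 48.2 and 50.4 FPKM under CD and 38.2, 43.3 and 37.5 under HCD. HCD replicates 1 and 3 were close to each other and replicate 2 lay between them and the CD libraries, and Fen1 fell by 19.8% (log2 change -0.31 ± 0.06 (SE), adjusted p = 0.0131). Lig1 (chromosome 7, 13277283 to 13311433), the ligase that seals the nick, had 81.6, 86.2 and 82.5 FPKM under CD and 69.1, 76.6 and 68.3 under HCD. The same library was again the highest of the HCD group, and Lig1 fell by 14.5% (log2 change -0.22 ± 0.05 (SE), adjusted p = 0.0297). Fen1 passed without CD replicate 2, HCD replicate 2 or HCD replicate 3 and was lost in the other 3 fits, and Lig1 passed only without HCD replicate 2 among the 6. Lig1 was also lost with no filter on low values, with trimmed-mean scaling and with the length trend removed (highest adjusted p 0.0828). Exons of both genes overlap others on the opposite strand. For Fen1 the annotated antisense gene Gm10143 covers 1909 bp of exon, against a Fen1 transcript length of 2373 bp, and Tmem258 overlaps by 75 bp. For Lig1 the overlap is 247 bp with Zswim9. Without the strand setting, reads of these genes and their partners cannot be told apart there.

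Neither fork scaffold gene passed. Wdhd1, which tethers polymerase alpha to the helicase, had 17.0, 16.5 and 18.8 FPKM under CD and 15.9, 13.0 and 16.1 under HCD. The HCD libraries were below all CD libraries, replicate 2 by the most, and the log2 change was -0.21 (95% interval -0.41 to -0.01, adjusted p = 0.148). Tipin, part of the complex that protects the fork and the more abundant of the pair, had 42.6, 42.6 and 43.3 FPKM under CD and 43.1, 42.8 and 45.9 under HCD, and the log2 change was 0.03 (95% interval -0.07 to 0.14, adjusted p = 0.651).

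The enzymes that supply deoxynucleotides did not pass the test in any of 5 genes. Rrm1, the large subunit of ribonucleotide reductase and the most abundant of them, had 104, 103 and 108 FPKM under CD and 92.5, 104 and 90.9 under HCD. HCD replicate 2 lay in the CD range and the other HCD libraries below it, and the log2 change was -0.13 (95% interval -0.26 to -0.00, adjusted p = 0.160). For Rrm2, the small subunit that is made in S phase, the log2 change was -0.02 (95% interval -0.13 to 0.10, adjusted p = 0.848). Tyms, the thymidylate synthase, had 18.3, 17.3 and 16.7 FPKM under CD and 14.1, 16.4 and 15.0 under HCD, with the groups apart, and the log2 change was -0.19 (95% interval -0.35 to -0.03, adjusted p = 0.0992). Without HCD replicate 2, Rrm1 and Tyms passed. The thymidine kinase gene Tk1 and the dUTPase gene Dut had log2 changes of 0.03 and -0.16, with overlapping groups in Tk1 and separate groups in Dut (adjusted p = 0.124).

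Behind the fork, chromatin is rebuilt and its marks are copied. Uhrf1 (chromosome 17, 56303321 to 56323486), which brings the maintenance DNA methyltransferase to newly copied sites, had 78.5, 77.6 and 80.2 FPKM under CD and 63.6, 58.9 and 67.0 under HCD. The highest HCD library (67.0 FPKM) stood below the lowest CD library (77.6 FPKM), and Uhrf1 fell by 19.8% (log2 change -0.32 ± 0.05 (SE), adjusted p = 0.00868). Like Pole it kept its call whichever library was left out, with a highest adjusted p of 0.0493. Slbp (chromosome 5, 33634952 to 33652574), which binds the stem loop of histone mRNAs and serves histone supply, had 60.3, 62.4 and 61.5 FPKM under CD and 55.4, 55.1 and 53.7 under HCD. The groups did not overlap, and Slbp fell by 10.8% (log2 change -0.16 ± 0.04 (SE), adjusted p = 0.0353), a call that was lost in 5 of the 6 fits without 1 library and with trimmed-mean scaling. The chromatin assembly subunits Chaf1a and Chaf1b had log2 changes of -0.16 (adjusted p = 0.0552, groups apart) and 0.06 (adjusted p = 0.403, groups overlapping). Chaf1a passed without HCD replicate 2.

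**Figure D3:**
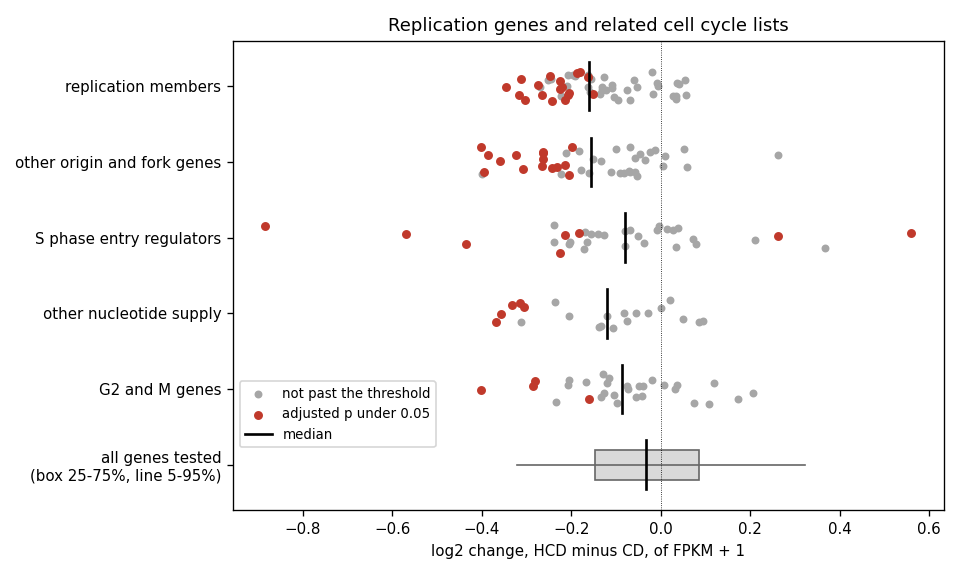
Log2 change (HCD minus CD, of FPKM + 1) of each gene, 1 point per gene, for the 55 replication genes and 4 related lists, with red points past an adjusted p of 0.05 and black bars at the list medians. The medians are -0.16 for replication genes and other origin and fork genes, -0.08, -0.12 and -0.09 for the 3 lists below them, and -0.03 for all genes tested, whose box and line span 25 to 75% and 5 to 95% of genes.

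Related lists outside the members were read beside them. Among 42 tested genes of origin firing and the fork, 15 fell (35.7%) and 0 rose, with a median log2 change of -0.16. Of all genes tested, 7.66% were lower and 6.28% higher. Dtl, which directs the destruction of Cdt1 at PCNA, had 31.3, 30.2 and 30.4 FPKM under CD and 23.1, 22.2 and 23.9 under HCD (log2 change -0.39 ± 0.05 (SE), adjusted p = 0.00258). Nasp, a histone chaperone, and Esco2, a cohesin acetyltransferase, fell as well (log2 change -0.26 and -0.39, adjusted p = 0.00633 and 0.00893). Dtl and Nasp kept their calls whichever library was left out, and Esco2 lost its call without CD replicate 1 (adjusted p = 0.0529). With the replicate block 16 fell and 1 rose, where 1032 of all 10676 genes tested fell and 841 rose. The count lower in this list was 2, 4 and 3 without CD replicates 1, 2 and 3 and 6, 17 and 8 without HCD replicates 1, 2 and 3. Over all genes tested, 1.67%, 2.27% and 2.07% were lower without CD replicates 1, 2 and 3. Without HCD replicates 1, 2 and 3 the shares were 3.27%, 14.2% and 5.54%.

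Among 33 regulators of S phase entry, 6 fell (18.2%) and 2 rose, with a median of -0.08. The shares over all genes tested were 7.66% lower and 6.28% higher. The cyclin D genes Ccnd1 and Ccnd2, whose proteins activate the kinases that free E2F, fell (log2 change -0.88 and -0.57, adjusted p = 0.00216 and 0.00262), and Cdkn2c, an inhibitor of those kinases, rose from 16.4, 16.0 and 14.1 FPKM under CD to 22.4, 24.0 and 23.6 under HCD (log2 change 0.56 ± 0.07 (SE), adjusted p = 0.00199). These 3 genes kept their calls whichever library was left out. The number lower was 2, 3 and 2 without CD replicates 1, 2 and 3 and 3, 8 and 4 without HCD replicates 1, 2 and 3. The shares lower over all genes in these fits are those given for the origin and fork list. The number higher was 4 of 33 without HCD replicate 2, where 1171 of all 10607 genes tested were higher. It was 1 when any other library was left out, where between 258 and 494 of all genes tested were higher. The other 4 genes that fell were Ccnd3, E2f3, Rbl1 and Tfdp1, and the other that rose was Cdkn2d. E2f1, named after its values were seen, had 20.8, 23.2 and 20.9 FPKM under CD and 19.4, 17.4 and 19.2 under HCD (adjusted p = 0.0789).

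Outside the members, 5 of 21 tested genes of nucleotide supply fell (23.8%, against 7.66% of all genes tested), with a median of -0.12. For the members' own supply enzymes it was 0 of 5, with a median of -0.13. Mthfd1, an enzyme of folate metabolism, Cad, which starts pyrimidine synthesis, and Dctd, a deaminase that supplies dUMP, fell with log2 changes of -0.36, -0.37 and -0.33 (adjusted p = 0.00189, 0.00205 and 0.00834). All 3 kept their calls whichever library was left out. The count for this list was 3 without CD replicate 1 and 11 without HCD replicate 2, where 1.67% and 14.2% of all genes tested were lower. Of 30 genes of G2 and mitosis 4 fell (13.3%, against 7.66% of all genes tested) and 0 rose, with a median of -0.09. They were Mki67, the proliferation marker, at 70.2, 72.7 and 72.8 FPKM under CD and 57.9, 57.3 and 61.2 under HCD, together with Cenpf, Bub1 and Bub1b. Mki67 and Cenpf kept their calls whichever library was left out, and Bub1 lost its call without CD replicate 1, 2 or 3 or HCD replicate 1 (adjusted p up to 0.116). In this list 2 genes fell when any of these 4 libraries was left out, where 1.67% to 3.27% of all genes tested fell. Once the length trend was taken out 1 fell, where 5.53% of all genes tested fell. In 15 of the 30 genes every HCD library lay below every CD library, and in 5 above. Over all genes tested, 22.7% lay wholly below and 15.0% wholly above. Those 5, named after their values were seen, were Cdc20, Nusap1, Ccnb1, Ccnb2 and Cenpa, of which the cyclin gene Ccnb2 (log2 change 0.17, adjusted p = 0.0613) and the centromeric histone gene Cenpa (0.21, adjusted p = 0.0618) came nearest to the threshold. With trimmed-mean scaling 3 genes of the list fell and 2 rose, where 597 of all 10676 genes tested fell (5.59%) and 785 rose. Without HCD replicate 2, 6 fell and 2 rose, where 1501 of all 10607 genes tested fell (14.2%) and 1171 rose.

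Transcript length moved with the values. Over the 10354 tested genes with an annotated length the Spearman rho between length and log2 change was -0.26, and over the 55 members it was -0.42, given as descriptions across genes that share the same 6 libraries. Without HCD replicate 2 they were -0.16 and -0.39. The 18 members called had a median transcript length of 3376 bp (1518 to 7163), and the other 37 a median of 2193 bp (670 to 5535). With the trend against length removed, 13 members were lower, 12 of them among the 18, and Lig1, Mcm2, Mcm3, Orc2, Pola1 and Rpa1 were lost while Rfc4 was gained. The median log2 change of the members was -0.1585 with the trend removed and -0.1611 with it. Among the lost genes the log2 change went from -0.21 to -0.18 in Orc2, -0.18 to -0.15 in Mcm2, -0.15 to -0.13 in Mcm3, -0.22 to -0.20 in Lig1, -0.24 to -0.17 in Pola1 and -0.19 to -0.12 in Rpa1. The part of length in the fall of these genes was not tested further. Called members were also higher in level, with a median of 64.5 FPKM against 34.4 FPKM.

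**Figure D4:**
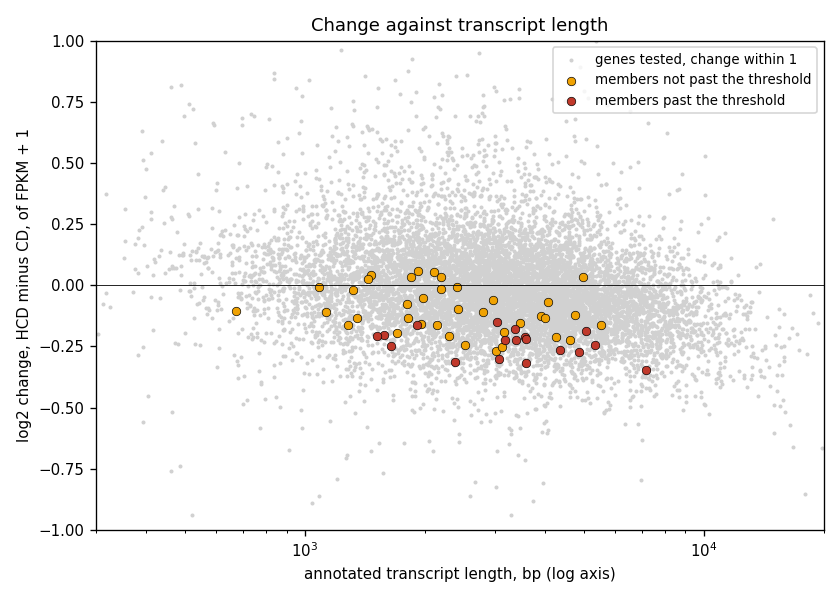
Log2 change (HCD minus CD, of FPKM + 1) against annotated transcript length in bp on a log axis. Light points are tested genes with an annotated length and a log2 change within 1 of 0. The 55 replication genes are laid over them, those past an adjusted p of 0.05 marked apart. Longer genes lie lower, with a Spearman rho of -0.26 over 10354 genes, larger changes included, and -0.42 over the 55 members.

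**Figure D5:**
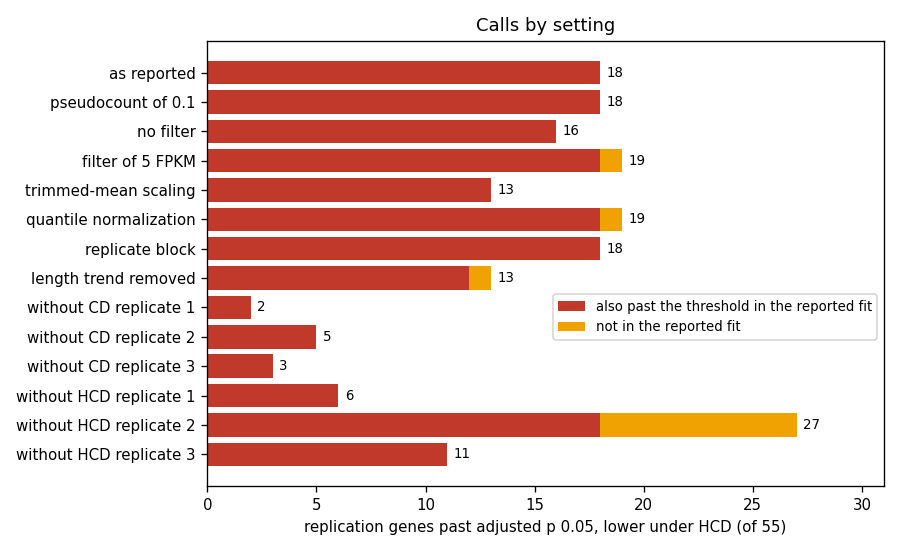
Number of the 55 replication genes lower under HCD past an adjusted p of 0.05 under each setting, with 18 as reported. The count lies between 13 and 19 where all libraries are kept and between 2 and 27 where 1 library is left out.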

How the data were processed

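Polyadenylated RNA of 6 sorts (3 CD, 3 HCD) was sequenced after extraction with a micro column kit and stranded library preparation, per the labels' protocols. Among tools the submitters' processing notes list fastp, HISAT2 and StringTie, and as builds GRCm38 and mm10, while versions, annotation and strand setting were not found. The authors deposited 1 value per gene and library, read here as FPKM because of its distribution, though the headers leave RPKM possible. Of 21878 lines per file, 27 with a date for a symbol (0.127% of the FPKM) were dropped.

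Differences were tested two-sided by limma 3.58.1 in R 4.3.3 on log2(FPKM + 1), using its trend and robust options. A gene entered when 3 or more libraries reached 1 FPKM, which 10676 did, and p-values were adjusted over all of these by Benjamini-Hochberg, with 0.05 as the threshold. Fold changes are on the log2(FPKM + 1) scale, which understates those of low genes. FPKM are not counts, so no count model was used. Low values were whole multiples of 1 read, within 0.02, in 81.2% of 1963 low genes, which gave the depth. Alternatives were the pseudocount, the filter, trimmed-mean and quantile scaling, removal of the trend against transcript length, the replicate block and leaving out each library. The test was tried on simulated data first.

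Replicate numbers were checked for pairing. Deviations from the group means correlated at 0.103, 0.292 and 0.166 for libraries 1, 2 and 3 of each group, each over 0.1, and at -0.25 to 0.0983 in the others. The labels do not say that numbers pair the libraries, and the test stayed unpaired.

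Values in every library are given for members past the threshold and for the largest change and highest level in each complex. Up to 3 genes with the smallest p were to be named from each related list. For S phase entry and for G2 and mitosis the other genes past the threshold were named too. Genes of these lists that did not pass are marked as named after their values were seen. Stn1 and Trbc2 were not found in the tables by that symbol and were not analysed here. The members and lists were chosen with earlier results of these data known, and a lower level of replication genes was among those results, so its direction here is not independent support.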

Additional observations from a re-analysis of the deposited data

How the results depend on the processing

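All settings listed in the methods were run. The count of members lower under HCD ranged from 2 to 27 when 1 library was left out, and that of all genes past the threshold from 435 to 2672, the highest of each without HCD replicate 2. In fits that kept every library the member count was 13 to 19. The count of members higher stayed at 0 in every setting. With the replicate block 18 members were lower, the same genes as without it, and no member's call changed, while over all genes the split was 841 higher and 1032 lower. In the related lists the block gave 16 lower and 1 higher (origin and fork), 7 and 3 (S phase entry), 7 and 0 (nucleotide supply) and 5 and 1 (G2 and mitosis), against 15 and 0, 6 and 2, 5 and 0, and 4 and 0 without it. The median log2 change of the members was -0.13 with trimmed-mean scaling and -0.17 to -0.16 when 1 library was left out. All 18 members called kept a log2 change below 0 throughout. The members whose sign turned were all ones that did not pass the test. With trimmed-mean scaling the log2 changes were 0.0232 (Gins1), 0.0247 (Dbf4), 0.0104 (Rfc3) and 0.0143 (Rrm2), and with quantile scaling 0.0095 (Gins1), 0.0217 (Dbf4) and 0.0065 (Rrm2). When 1 library was left out, the log2 change ranged from -0.1258 to 0.0322 for Orc4, -0.0352 to 0.1009 for Orc5, -0.0331 to 0.0813 for Orc6 and -0.0067 to 0.0791 for Cdt1. It ranged from -0.0668 to 0.0586 for Gins1, -0.0610 to 0.0757 for Dbf4, -0.0044 to 0.0600 for Rfc2, -0.0882 to 0.0470 for Rfc3, -0.0547 to 0.0164 for Rrm2 and -0.0104 to 0.0517 for Tk1. Fits without 1 library have fewer samples, and the cause of the differing counts was not tested.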
